A study of Homo sapiens with 9 samples.

Results

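The feedback genes of the ERK pathway are the 10 genes DUSP4, DUSP5, DUSP6, SPRY2, SPRY4, SPRED1, SPRED2, ETV4, ETV5, and PHLDA1, taken by symbol from a table of 14839 genes, and all 10 were measured. The list was chosen by 2 things, the ERK activity of uveal melanoma with mutated GNAQ or GNA11, and the values of DUSP6 in these libraries, where it was higher with miR-16. The differences of DUSP6 are therefore a description and not a finding, and those of the other genes come from the same libraries. MP41 is a uveal melanoma cell line that carries a GNA11 mutation, so all groups share this 1 line and its mutation. The cells received a synthetic miR-16 mimic or the control mimic miR-CTR, each at 66 nM, and polyA RNA was sequenced at 6, 12, 24, and 48 h. A 0 h library, titled with the control mimic, was made from cells harvested before transfection and is the common starting point of both series. Each of the 9 conditions had 1 library, so no difference below has a replicate check, and none was tested.

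In uveal melanoma, Gαq and Gα11 signal through phospholipase C, protein kinase C, and RASGRP3 to RAS, and from there through RAF and MEK to the kinase ERK. ERK switches on genes whose products restrain it again. The dual-specificity phosphatases remove the activating phosphates from ERK, whereas the Sprouty and SPRED proteins act upstream, at the level of receptors, RAS, and RAF. The levels of these RNAs are widely used as a readout of ERK output, although each gene also answers to other inputs. Protein and phosphorylated ERK were not measured here.

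All values are normalized log2 expression as deposited, where a step of 1 is a doubling of the level. A logFC is the miR-16 value minus the miR-CTR value at the same time, and the late logFC is the mean of 24 and 48 h. The error given after ± is a counting standard error derived from the recovered reads, and it covers neither the spread between cultures nor that between library preparations. The libraries held between 20290000 and 27370000 recovered reads on the genes of the table, and their median values lay between 9.13 and 9.17. All 8 melanocyte lineage markers of the fixed list were measured, with means over the 9 libraries from 9.13 to 17.71, whereas none of the 3 immune, 3 endothelial, and 3 epithelial markers was in the table. Of the 4 fibroblast markers, COL1A1 and LUM were in the table, and COL3A1 and DCN were not. The summed linear level of COL1A1 and LUM lay between 459 and 555 with miR-16 and between 438 and 739 with miR-CTR, and COL1A1 had a late difference (miR-16 minus miR-CTR, mean of 24 and 48 h, log2) of 0.04. That of LUM was -0.81, a 1.75-fold lower level with miR-16 and as large as that of SPRED1 below, with 7.59 and 8.57 at 48 h. The part of these markers in the results was not tested.

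The sequences that bear on the feedback genes are the mimics themselves and the matches to their seeds, bases 2 to 8 of a miRNA, by which a miRNA classically recognizes the 3′UTR of a target. miR-16 is encoded by MIR16-1 on chromosome 13 (50049027 to 50049048, reverse strand) and MIR16-2 on chromosome 3 (160404754 to 160404775, forward strand) of GRCh38. Its mature sequence (RefSeq, GRCh38.p14) and the other guide that the study lists for its biotinylated mimics are shown with the seed in capitals. The list gives the miR-16 sequence under the name of the control and this other guide under the name of miR-16. The names were taken as exchanged, and the transfected miR-CTR was assumed to carry the other guide, so every statement on it rests on that assumption.
miR-16: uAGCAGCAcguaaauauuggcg
other guide: uUGUACUAcacaaaaguacug

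A match was TGCTGCTA (8mer), TGCTGCT (7mer-m8), or GCTGCTA (7mer-A1) for miR-16, and TAGTACAA, TAGTACA, or AGTACAA for the other guide, on the strand of the transcript in the longest annotated 3′UTR of the gene. Overlapping matches were counted once, under the longest class. Of the 10 feedback genes, 2 held a miR-16 match (20.0%), beside 29.2% of the 11576 protein-coding genes of the table with a 3′UTR. SPRED1 held 2 8mers in a 3′UTR of 5585 bases, on chromosome 15 at 38353578 to 38353585 and 38353968 to 38353975 (forward strand). SPRY4 held 1 7mer-m8, on chromosome 5 at 142313038 to 142313044 (reverse strand). The matching bases are in capitals, with 3′UTR sequence on either side (GENCODE version 29, GRCh38).
SPRED1 site 1: tatatttgaaTGCTGCTAcaacag
SPRED1 site 2: ttaaccacttTGCTGCTAagattt
SPRY4 site: cttctgattcTGCTGCTcactgt

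DUSP6, which differed most between the mimics, had no match of 7 or more bases for either guide in its 3′UTR of 2022 bases, and 1 6mer (GCTGCT) for miR-16. The other guide had a match in 4 of the 10 genes (40.0%), beside 14.7% of the protein-coding genes of the table with a 3′UTR. These were SPRED2 with an 8mer (chromosome 2, 65312047 to 65312054, reverse strand), ETV5 with a 7mer-m8 (chromosome 3, 186047116 to 186047122, reverse strand), PHLDA1 with a 7mer-A1 (chromosome 12, 76029066 to 76029072, reverse strand), and DUSP4 with a 7mer-A1. They are shown because a match to the control guide bears on the miR-CTR series and not on the miR-16 series.
SPRED2 site: atacctagcaTAGTACAAtcagaa
ETV5 site: ccgtgacactTAGTACAttaaga
PHLDA1 site: cgttgtttaaAGTACAAtttgta

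A match is a description of the letters and not proof of binding.

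With miR-16, 4 of the 10 feedback genes were past a late logFC of 0.5 upward, namely DUSP6, SPRY4, PHLDA1, and DUSP4, and 1 was past it downward, SPRED1. Over all 14839 genes, 7.76% were past 0.5 upward and 5.73% downward. Without the 25% of genes with the lowest mean, to which none of the 10 belongs, these shares were 3.96% and 4.81%. The median late logFC was 0.39 over the 10 genes and 0.01 over all genes. Leaving out DUSP6, whose values chose the list, 3 of 9 genes were past 0.5 upward and 1 downward, with a median of 0.36. The other genes come from the same libraries, and nothing is read from these counts. Just past the threshold were DUSP4 (0.55) and PHLDA1 (0.56), and short of it were SPRY2 (0.42) and ETV5 (0.36). The remaining late logFC were 0.17 for ETV4, -0.06 for DUSP5, and -0.08 for SPRED2. The phosphatases, the Sprouty genes, and the SPRED genes each had members on different sides of the threshold. For the Sprouty genes this depends on where the threshold lies, as SPRY2 and SPRY4 both had a logFC above 0 at all 4 times.

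**Figure D1:**
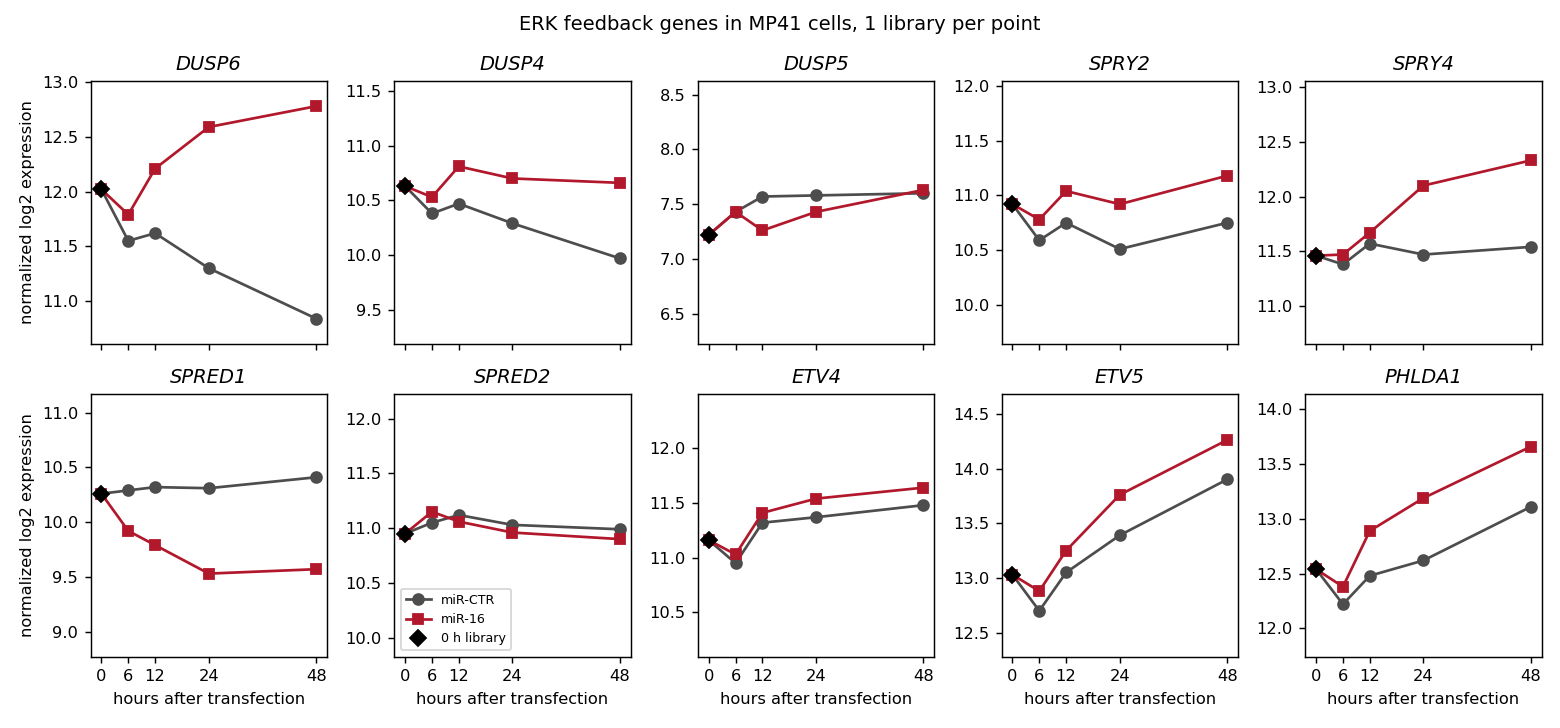
Normalized log2 expression (y axis, each panel spanning the same height) of the 10 feedback genes against hours after transfection (x axis), with 1 library per point, miR-16 as red squares, miR-CTR as grey circles, and the common 0 h library as a black diamond. The 2 series part in opposite directions for DUSP6 (12.78 and 10.84 at 48 h), and SPRED1 is the gene whose miR-16 series lies clearly below its miR-CTR series (9.57 and 10.41 at 48 h).

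DUSP6 encodes the cytoplasmic phosphatase that is most specific for ERK. It stood at 12.02 at 0 h. With miR-16 it was 11.79, 12.21, 12.59, and 12.78 at 6, 12, 24, and 48 h, and with miR-CTR 11.55, 11.62, 11.30, and 10.84. All 4 miR-CTR values were below 0 h, and the miR-16 values were below it at 6 h and above it from 12 h on. At each time the miR-16 value was above the miR-CTR value, as in 17.7% of all genes. The logFC was 0.24 ± 0.037, 0.59 ± 0.032, 1.29 ± 0.035, and 1.94 ± 0.036 at the 4 times. The late logFC of 1.61 ± 0.025 is a 3.06-fold higher level, and that at 48 h a 3.84-fold higher level. It was the 29th highest late logFC of the 14839 genes. Measured from 0 h, the late mean changed by 0.67 in the miR-16 series and by -0.95 in the miR-CTR series. The larger change was thus the drop in the miR-CTR series. Both changes also include transfection and time in culture.

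DUSP4 encodes a nuclear phosphatase of ERK and other MAP kinases. It was 10.63 at 0 h, then 10.53, 10.81, 10.70, and 10.66 with miR-16, and 10.38, 10.47, 10.29, and 9.97 with miR-CTR. The miR-16 values stayed within 0.18 of the 0 h value at all 4 times, whereas the miR-CTR values were all lower than 0 h, with a change of -0.66 at 48 h. The late logFC was 0.55 ± 0.039 (1.46-fold). The logFC at 24 h, 0.41 ± 0.055, was below the threshold, and that at 48 h, 0.69 ± 0.056, was above it, so this call rests on the 48 h libraries.

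DUSP5 encodes a nuclear phosphatase that binds ERK, and it was the least expressed of the 10 genes, with 142 to 226 reads per library. It was 7.22 at 0 h, 7.43, 7.26, 7.43, and 7.63 with miR-16, and 7.43, 7.57, 7.58, and 7.60 with miR-CTR. The values of the mimics overlapped, and the late logFC of -0.06 had a 95% counting interval from -0.27 to 0.15. At this depth no difference was detectable.

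SPRY4 and SPRY2 encode Sprouty proteins, which restrain the signal between receptors and RAF. SPRY4 was 11.46 at 0 h, then 11.47, 11.67, 12.10, and 12.33 with miR-16, and 11.38, 11.57, 11.47, and 11.54 with miR-CTR. The miR-CTR values stayed within 0.11 of the 0 h value, and the 24 and 48 h values with miR-16 were the highest of the 9 libraries. The logFC of SPRY4 was 0.09 ± 0.040 and 0.10 ± 0.035 at 6 and 12 h, and 0.63 ± 0.036 and 0.79 ± 0.032 at 24 and 48 h. The late logFC of 0.71 ± 0.024 (1.64-fold) was the 507th highest of the table, in a gene whose 3′UTR holds a 7mer-m8 for miR-16.

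SPRY2 was 10.92 at 0 h, then 10.78, 11.04, 10.92, and 11.18 with miR-16, and 10.59, 10.75, 10.51, and 10.75 with miR-CTR. At each time the miR-16 value was above the miR-CTR value, as in 17.7% of all genes. The lowest miR-16 value (10.78) and the highest miR-CTR value (10.75) were not distinguishable by counting. The logFC was 0.19 ± 0.051, 0.29 ± 0.045, 0.41 ± 0.051, and 0.43 ± 0.044, and the late logFC of 0.42 ± 0.034 (1.34-fold) did not reach the threshold.

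SPRED1 and SPRED2 encode relatives of the Sprouty proteins, and SPRED1 brings the RAS inhibitor neurofibromin to the membrane. SPRED1 was 10.26 at 0 h, then 9.92, 9.79, 9.53, and 9.57 with miR-16, and 10.29, 10.32, 10.31, and 10.41 with miR-CTR. At each time the miR-16 value was below the miR-CTR value, as in 16.7% of all genes. The logFC was -0.37 ± 0.064, -0.53 ± 0.061, -0.78 ± 0.068, and -0.84 ± 0.065. The late logFC of -0.81 ± 0.047 is a 1.75-fold lower level and the 174th lowest of the table. From 0 h, the late mean changed by -0.71 in the miR-16 series and by 0.10 in the miR-CTR series, the reverse of the balance in DUSP6. The gene holds both of the 8mers printed above. Among the protein-coding genes of the table with a 3′UTR, 29.2% held a miR-16 match. The share was 52.5% of those past 0.5 downward in the late window and 21.1% of those past 0.5 upward. The part of the matches in the difference of SPRED1 was not tested.

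SPRED2, whose 3′UTR has no miR-16 match, varied least of the 10 genes, between 10.90 and 11.15 over the 9 libraries. It was 10.95 at 0 h, 11.15, 11.06, 10.96, and 10.90 with miR-16, and 11.05, 11.12, 11.03, and 10.99 with miR-CTR. The values overlapped, and the late logFC of -0.08 had a 95% counting interval from -0.14 to -0.02.

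ETV4 and ETV5 encode transcription factors of the PEA3 group, which ERK induces and activates. ETV5 was 13.03 at 0 h, 12.88, 13.25, 13.76, and 14.26 with miR-16, and 12.70, 13.05, 13.39, and 13.90 with miR-CTR. Both series were lowest at 6 h and highest at 48 h, with the miR-16 value above the miR-CTR value at each time. The late mean was 0.98 above 0 h with miR-16 and 0.61 above it with miR-CTR, and the late logFC was 0.36 ± 0.012 (1.29-fold).

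ETV4 was 11.16 at 0 h, 11.03, 11.41, 11.54, and 11.64 with miR-16, and 10.95, 11.32, 11.37, and 11.48 with miR-CTR. Its values followed the same course at a smaller size, and the late logFC of 0.17 ± 0.027 is a 1.12-fold higher level. Exons of ETV4 overlap DHX8 on the opposite strand and those of ETV5 overlap DGKG on the same strand, and how the shared reads were assigned is not given in the sources used here. DHX8 had a late logFC of -0.14 and DGKG one of 0.32.

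PHLDA1 encodes a small pleckstrin homology-like protein that is induced by ERK and restrains receptor signaling. It was 12.54 at 0 h, 12.38, 12.89, 13.19, and 13.66 with miR-16, and 12.22, 12.48, 12.62, and 13.11 with miR-CTR. Like ETV5, it was lowest at 6 h and highest at 48 h in both series. The logFC was 0.16 ± 0.029, 0.41 ± 0.024, 0.57 ± 0.024, and 0.55 ± 0.019, and the late logFC of 0.56 ± 0.015 is a 1.47-fold higher level. DUSP6 and PHLDA1 also overlap annotated antisense genes, which were not analysed here.

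**Figure D2:**
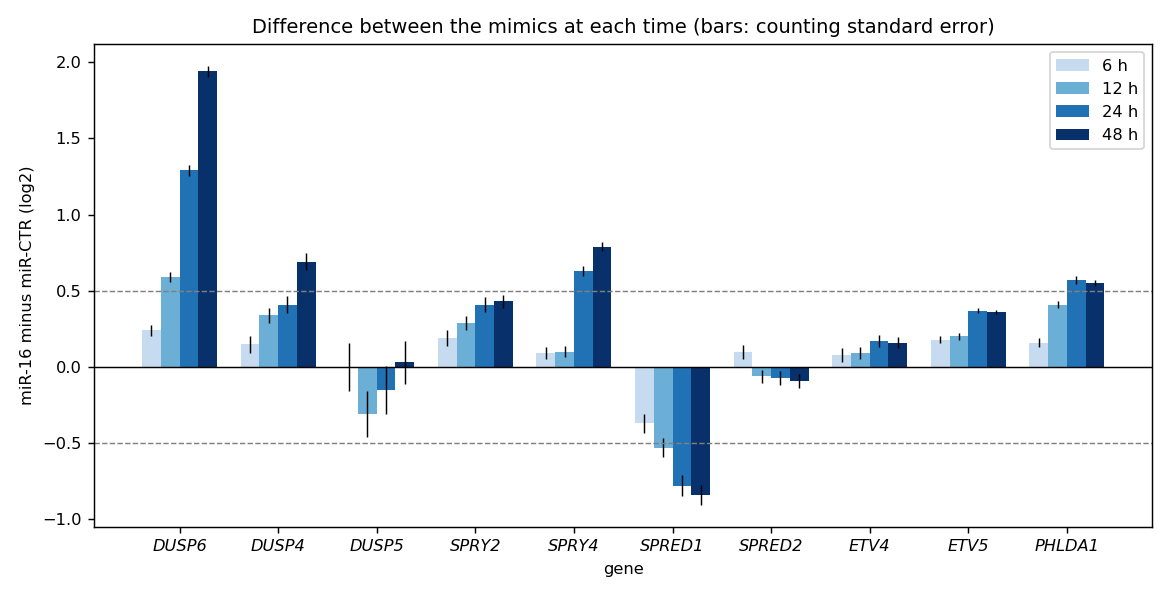
The miR-16 minus miR-CTR difference in log2 units (y axis) for each feedback gene (x axis), with 1 bar per time from 6 h (lightest) to 48 h (darkest), counting standard errors as thin lines, and the threshold of 0.5 as dashed lines. DUSP6 climbs from 0.24 to 1.94 and SPRED1 goes from -0.37 to -0.84, whereas DUSP5, SPRY2, SPRED2, ETV4, and ETV5 stay within the threshold at all 4 times.

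The differences were small at the early times. At 6 h none of the 10 genes was past 0.5 in either direction, beside 3.38% of all genes upward and 3.34% downward. At 12 h DUSP6 was past 0.5 upward (3.31% of all genes) and SPRED1 downward (2.53% of all genes). No gene of the 10 was past 0.5 over the mean of 6 and 12 h, beside 2.04% of all genes upward and 1.45% downward, the nearest being SPRED1 at -0.45 and DUSP6 at 0.41. At 24 h 3 genes were past 0.5 upward (7.24% of all genes) and 1 downward (5.26%), and at 48 h the counts were 4 upward (10.4%) and 1 downward (8.96%).

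DUSP6, SPRY4, and PHLDA1 were past 0.5 upward at 24 h and again at 48 h, as were 4.03% of all genes, and SPRED1 was past it downward at both times, as were 2.78% of all genes. A logFC above 0 at all 4 times was seen in 7 of the 10 genes and in 17.7% of all genes, and one below 0 at all 4 times in SPRED1 and in 16.7% of all genes. In DUSP4, DUSP6, SPRY2, and SPRY4 the logFC was above 0 and larger at each later time, as in 3.16% of all genes. Some of these steps lay within the combined counting error of the 2 values. They were those of SPRY4 from 6 to 12 h (0.09 ± 0.040 to 0.10 ± 0.035), SPRY2 from 24 to 48 h (0.41 ± 0.051 to 0.43 ± 0.044), and DUSP4 from 12 to 24 h (0.34 ± 0.050 to 0.41 ± 0.055). For PHLDA1, ETV4, and ETV5 the logFC at 24 and 48 h differed by at most 0.02, whereas that of DUSP6 differed by 0.65.

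Changes from the common 0 h library describe each series, but they mix the mimic with transfection and time in culture. Since both series are measured from that library, the 2 changes of a gene are not independent. With miR-16, 4 feedback genes were past 0.5 above 0 h in the late window (ETV5 0.98, PHLDA1 0.89, SPRY4 0.76, and DUSP6 0.67), beside 14.1% of all genes, and SPRED1 was past 0.5 below it, beside 11.7%. With miR-CTR, ETV5 was past 0.5 above 0 h (11.0% of all genes) and DUSP6 below it (9.79% of all genes), with DUSP4 at -0.50. Hence 4 kinds of course stood behind the late logFC. In SPRY4 and SPRED1, the miR-16 series left the 0 h level and the miR-CTR series stayed near it. In DUSP4 the miR-CTR series left it and the miR-16 series stayed near it. In ETV5 and PHLDA1 both series were above it, and in DUSP6 they lay on opposite sides. With both late libraries of a series taken singly, DUSP6 and DUSP4 were above 0 h with miR-16 and below it with miR-CTR, as were 4.35% of all genes. SPRED1 was below it with miR-16 and above it with miR-CTR, as were 4.93% of all genes. For DUSP4 the miR-16 values were 0.07 ± 0.052 and 0.03 ± 0.052 above 0 h at 24 and 48 h, and for SPRED1 the miR-CTR value at 24 h was 0.05 ± 0.059 above it, so these sides are not distinguishable from the 0 h level by counting. Of the 4 genes with a match for the other guide, the late change from 0 h with miR-CTR was -0.50 for DUSP4, 0.06 for SPRED2, 0.33 for PHLDA1, and 0.61 for ETV5. Among the protein-coding genes of the table with a 3′UTR, 14.7% held a match for the other guide. The share was 25.6% of those past 0.5 upward in the late window and 11.1% of those past 0.5 downward. The part of the other guide in the results was not tested.

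**Figure D3:**
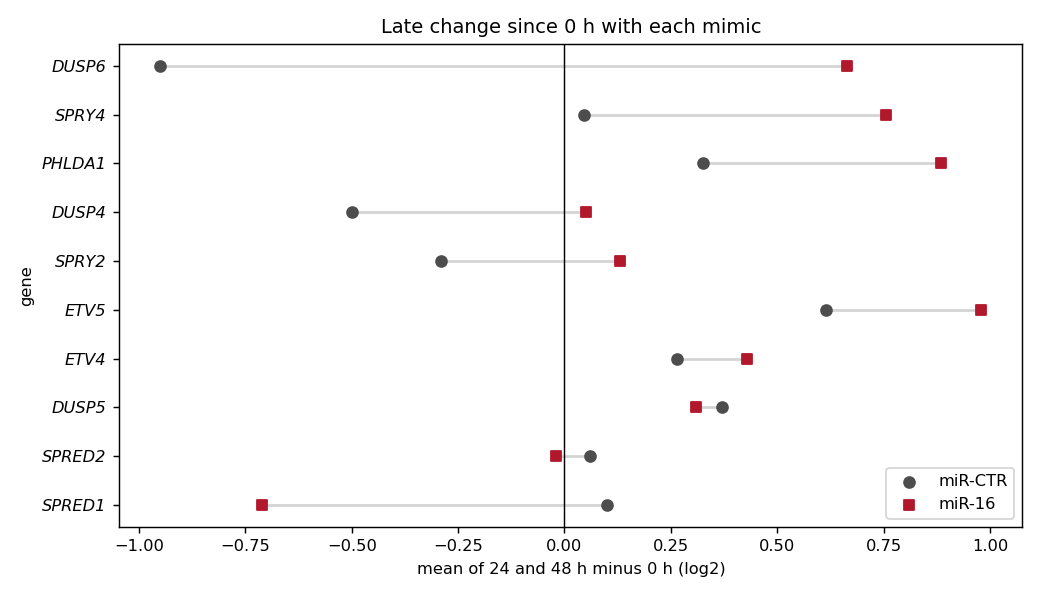
Mean of 24 and 48 h minus 0 h in log2 units (x axis) for each feedback gene (y axis), with miR-16 as red squares, miR-CTR as grey circles, and a grey line joining the 2 values of a gene, ordered by the late difference. DUSP6 extends to both sides of 0 (0.67 and -0.95), DUSP4 mostly to the left through miR-CTR (-0.50), and SPRED1 to the left through miR-16 (-0.71).

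To compare levels between genes, linear normalized reads were divided by the length of the principal transcript. At 0 h ETV5 was highest with 2034 normalized reads per kb, then SPRY4 with 1184, DUSP6 with 944, ETV4 with 942, PHLDA1 with 738, SPRY2 with 715, SPRED2 with 483, DUSP4 with 286, SPRED1 with 157, and DUSP5 with 58. There is no replicate spread for this order, and DUSP6 and ETV4 were level in it. SPRY4 has a principal transcript of 2.38 kb, and its longest 3′UTR belongs to a longer transcript, so its rank depends on this choice. At 48 h ETV5 was still highest with each mimic (4772 with miR-16 and 3718 with miR-CTR). DUSP6 was at 1598 with miR-16 and at 416 with miR-CTR, a level that was above SPRY2 in the former (856) and below it in the latter (636).

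How alike the courses were was measured as the root-mean-square distance between 2 genes over the 9 libraries, each gene centred on its own mean, in log2 units. Among the 45 pairs of feedback genes the median distance was 0.36. ETV5 and PHLDA1 were the closest pair (0.13) and DUSP6 and SPRED1 the farthest (0.88). The feedback gene closest to DUSP6 was DUSP4 (0.38), at more than the median distance. Outside the feedback genes, the 5 courses closest to DUSP6 among 9739 genes with a mean of at least 8 were those of C10orf10 (0.158), SFRP1 (0.165), TGM2 (0.202), MAP2 (0.206), and SERPINE2 (0.208). SFRP1, which encodes a secreted antagonist of WNT signaling, was 12.53 at 0 h and 13.21 with miR-16 and 11.35 with miR-CTR at 48 h. SERPINE2, which encodes a secreted protease inhibitor, was 12.42 at 0 h and 13.22 and 11.65 at 48 h. The late logFC of the 5 genes lay between 1.16 and 1.40, below that of DUSP6.

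The other genes of the pathway were described from 4 lists, against the late background of 7.76% upward and 5.73% downward. Of 7 other MAP kinase phosphatases (DUSP1, DUSP2, DUSP7, DUSP8, DUSP9, DUSP10, and DUSP16), none was past 0.5 in either direction in the late window, and their late logFC lay between -0.23 and 0.36 with a median of 0.19. The phosphatases past the threshold were thus DUSP6 and DUSP4 among the 10 of this family that were measured. Of 4 further Sprouty, SPRED, and PEA3 genes, 3 were in the table. SPRY1 (0.67 ± 0.068) and ETV1 (0.69 ± 0.026) were past 0.5 upward and SPRY3 (-0.64 ± 0.182, with 42 to 94 reads per library) was past it downward. SPRY1 was 8.68 at 0 h and 9.32 with miR-16 and 8.66 with miR-CTR at 48 h, whereas ETV1 was 11.98 at 0 h and 12.08 with miR-16 and 11.19 with miR-CTR at 48 h. Thus SPRY1 departed from 0 h mainly in the miR-16 series, as SPRY4 did, and ETV1 mainly in the miR-CTR series, as DUSP4 did. The 3′UTR of ETV1 holds a 7mer-m8 for miR-16, and that of SPRY1 holds no match for either guide.

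Of 10 measured ERK output genes outside the feedback group, 3 were past 0.5 upward and 1 downward in the late window, with a median of 0.34. EGR1, an immediate early transcription factor, had a late logFC of 0.99 ± 0.187 at 35 to 107 reads per library. It was 6.78 at 0 h, 6.91, 6.63, 6.28, and 6.78 with miR-16, and 6.63, 6.39, 5.24, and 5.84 with miR-CTR, so its 48 h value with miR-16 was equal to that at 0 h and all 4 miR-CTR values were lower. MYC, a transcription factor of cell growth, was 12.24 at 0 h and 12.71 with miR-16 and 12.10 with miR-CTR at 48 h (late logFC 0.58 ± 0.020). CXCL8, a chemokine, had a late logFC of 0.56 with a 95% counting interval from -0.03 to 1.15, at 16 to 83 reads per library, and is not distinguishable from 0 at this depth. CCND1, which encodes the ERK-induced cyclin D1, was past 0.5 downward (-0.63 ± 0.013). It was 13.53 at 0 h and 13.65 with miR-16 and 14.31 with miR-CTR at 48 h, and its 3′UTR holds 2 miR-16 matches, of which 1 is an 8mer.

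Of 21 genes of the cascade from Gαq to ERK and its kinase substrates, 1 was past 0.5 upward and 1 downward in the late window, with a median of -0.17. NRAS, which encodes a RAS protein, was the upward gene (0.65 ± 0.033). NRAS was 11.65 at 0 h, 11.39, 11.53, 11.29, and 11.27 with miR-16, and 11.10, 10.86, 10.72, and 10.55 with miR-CTR, so that all 8 values were below 0 h and the miR-CTR values were lower at each time. Its late mean changed from 0 h by -0.37 in the miR-16 series and by -1.01 in the miR-CTR series, and its 3′UTR holds an 8mer for the other guide. MAP2K1, which encodes the ERK kinase MEK1, was past 0.5 downward (-0.52 ± 0.051). It was 9.82 at 0 h and 9.32 with miR-16 and 9.90 with miR-CTR at 48 h. Its 3′UTR holds an 8mer for miR-16 and a 7mer-m8 for the other guide. The late logFC was below 0 in 16 of the 21 genes, beside 49.1% of all genes of the table.

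**Figure D4:**
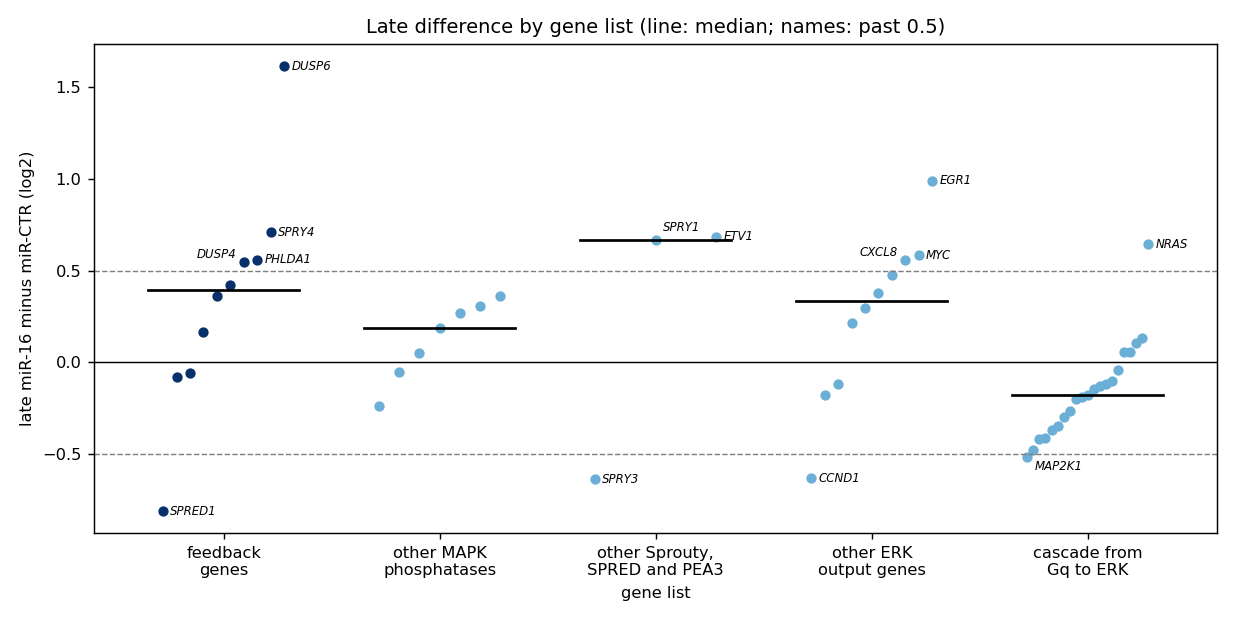
Late miR-16 minus miR-CTR difference in log2 units (y axis) for the feedback genes (dark blue) and the 4 lists of other pathway genes (light blue, x axis), with 1 point per gene, a black line at the median of each list, dashed lines at the threshold of 0.5, and names for genes past it. The feedback genes have a median of 0.39 and a range from -0.81 to 1.61, and the cascade genes a median of -0.17.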

How the data were processed

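MP41 cells were sequenced in 9 conditions with 1 library each. The authors deposited 1 table of normalized log2 values with decimal commas. Per the submitters' processing notes, the tools were FastQC, STAR 2.4.0a, featureCounts, and Subread 1.5.0-p3, and the build hg38 (GRCh38). The strand setting, the normalization, and any filter on weakly expressed genes are not given in the sources used here. Column names give the mimic and a time index, read here as the times of the titles in ascending order.

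Each library has its own step on the linear scale less 1, and 100% of its values up to 15 were whole multiples of that step (tolerance 0.004 of the value plus 1). The deposited log2 unit is thus log2(reads / size factor + 1), and dividing by the step gave the reads. Counting errors and 95% intervals assume Poisson counts of these reads. The threshold of 0.5 and the time windows are the study's.

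No test was computed. No condition had a replicate, the feedback genes were chosen on the contrast between the mimics, and a fit that takes the 4 times as pairs was not run. The 10 genes and all lists were chosen with earlier results of these data known. Named genes are the 10 feedback genes, the listed pathway genes past 0.5 in the late window, and the 5 genes outside them whose course was closest to DUSP6. 1 gene of the cascade list is not reported here. DHX8 and DGKG were added after their values were seen, as overlapping genes. 3′UTRs came from GENCODE version 29, joined by symbol. The calling of genes and the recovery of reads were tested on simulated data. Python 3.11.15, pandas 2.3.3, numpy 2.4.6, and matplotlib 3.10.9 were used. The alternatives were a 1.5-fold threshold, quantile normalization, centring on the median gene, CPM from the recovered reads, the 0 h library as reference, single times, a filter on low expression, and other definitions of a site.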

Additional observations from a re-analysis of the deposited data

Results flagged for a closer look

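In 3 of the 10 feedback genes, both late libraries of 1 mimic lay above the 0 h library and both late libraries of the other mimic lay below it. The difference between the mimics was 1.61 for DUSP6 and 0.55 for DUSP4, with miR-16 above 0 h, and -0.81 for SPRED1, with miR-16 below it (late changes from 0 h, log2). Among all 14839 genes, 4.35% had this pattern with miR-16 above 0 h and 4.93% with miR-16 below it. In DUSP4 the miR-16 values, and in SPRED1 the 24 h miR-CTR value, lay within 1.5 counting standard errors of 0 h. Of the 41 listed pathway genes measured, 7 had the pattern, 3 of them with a late logFC past 0.5, namely SPRY1 (0.67), MYC (0.58), and MAP2K1 (-0.52), and 4 within it, namely DUSP7, GNAQ, PRKCD, and NF1, named after their values were seen. In SPRY1 and MAP2K1, too, miR-CTR values at 48 h lay within 1.5 counting standard errors of 0 h. The same held for the miR-16 values of DUSP7 at 24 h and of GNAQ and PRKCD at 48 h. The 5 genes whose courses were closest to DUSP6 had it too, namely C10orf10 (1.32), SFRP1 (1.40), TGM2 (1.25), MAP2 (1.24), and SERPINE2 (1.16), as their selection favours. These differences were not tested, and each condition had 1 library.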

How the results depend on the processing

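With the threshold at 1.5-fold, 2 feedback genes (DUSP6 and SPRY4) were past it upward in the late window in place of 4, since DUSP4 and PHLDA1 lay just above 0.5. Under quantile normalization, centring on the median gene, and CPM, the same 4 genes were past 0.5 upward and SPRED1 downward, and no late logFC of the 10 genes moved by more than 0.06 or changed sign. Against the 0 h library, ETV5 replaced DUSP4 among the 4. In the early window the counts were 0 in either direction over the mean of 6 and 12 h, and 1 upward (DUSP6) and 1 downward (SPRED1) at 12 h alone. Without the 25% of genes with the lowest mean, 3.96% of all genes were past 0.5 upward, in place of 7.76%. With 8mers alone, 1 feedback gene held a miR-16 match, and with 6mers counted too, 4 did (DUSP6 and ETV4 added). A fit with the miR-16 and miR-CTR libraries paired by time was not run.

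Each difference rests on 1 culture and 1 library per condition, and the spread between cultures is unknown. Among the feedback and pathway genes named, the counting error was largest for CXCL8, EGR1, SPRY3, and DUSP5, which had the fewest reads.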
